A study of Mus musculus with 12 samples.

Results

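The genes of oxidative phosphorylation, chosen as every gene that the deposited annotation assigns to that KEGG pathway, were 130 of the 36400 genes in the table. Of these, 13 are encoded on the mitochondrial chromosome and 117 in the nucleus. RNA was sequenced from dorsal skin of 12 female BALB/c mice that were 6 weeks old at purchase, 3 in each of 4 groups, taken on day 30 as a model of atopic dermatitis and its treatment. No genetic change is given for any group. Control mice received only the vehicle of acetone and olive oil. In the DNCB group the skin was sensitized with 1% 1-chloro-2,4-dinitrobenzene (DNCB), a hapten that provokes contact inflammation, and then challenged with 0.5% DNCB. The scMSC group had the same DNCB course and received 2000000 human umbilical cord mesenchymal stem cells (MSCs) in 100 µL under the dorsal skin in each of 4 injections, while scivMSC mice were given 50 µL of each dose by the same route and the remaining 50 µL intravenously through the tail. The hosts kept their own immune cells, every MSC mouse had also received DNCB, and no group received MSCs alone.

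Oxidative phosphorylation is the last stage of respiration. Complexes I to IV of the inner mitochondrial membrane pass electrons to oxygen, all but complex II pump protons as they do so, and ATP synthase uses the returning protons to make ATP. The subunits come from 2 genomes, because the mitochondrial chromosome encodes core subunits of complexes I, III, IV and ATP synthase, while the nucleus encodes the rest and all of complex II. In the skin, mitochondria are known to be dense in the thin sheet of skeletal muscle beneath the dermis, in sebaceous glands and in growing hair follicles. KEGG lists 2 other kinds of gene in the pathway, the vacuolar proton pump (V-ATPase), which acidifies lysosomes and other compartments, and pyrophosphatases and P-type proton pumps.

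The 130 genes comprised 44 of complex I, of which 7 were mitochondrial, 4 of complex II, 10 of complex III with 1 mitochondrial, 22 of complex IV with 3 mitochondrial, 4 assembly factors of complex IV, 17 of ATP synthase with 2 mitochondrial, 24 of the V-ATPase, 2 P-type pumps and 3 pyrophosphatases or related enzymes. Levels are given in FPKM, fragment counts scaled to transcript length and to library size, which can be compared between genes per length. A gene was tested where its mean over the 12 libraries was at least 0.1 FPKM, which held for 127 of the 130 members. The 3 below this level were Atp6v1g3 (0.00230 FPKM), Cox7b2 (0.0232 FPKM) and Atp6v1e2 (0.000776 FPKM), forms known from kidney or testis. Differences were tested on the deposited estimated counts with the quasi-likelihood test of edgeR over 21890 genes, and a gene passed at a Benjamini-Hochberg adjusted p under 0.05. The estimated counts summed to 63877153 to 75134001 per library. Fold changes are on the log2 scale with their standard error (SE), and each group has n = 3.

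Members of both genomes were lower in DNCB skin. The 13 mitochondrial members took 10.9%, 10.8% and 8.02% of all estimated counts in the control libraries and 4.53%, 3.92% and 5.22% in the DNCB libraries. In scMSC skin the shares were 4.68%, 4.85% and 6.04%. In scivMSC skin they were 4.44%, 4.87% and 10.8%. The highest of these scivMSC values, replicate 3, lay among the control libraries, and the other 8 DNCB-exposed libraries lay below every control library. The summed level of the nuclear members was 8985, 9254 and 7387 FPKM in control and 5393, 5491 and 5634 FPKM in DNCB. It was 5289, 5226 and 6139 FPKM in scMSC and 5304, 5344 and 6976 FPKM in scivMSC. All 9 DNCB-exposed libraries were therefore below the lowest control library in the nuclear sum, with scivMSC replicate 3 nearest to it. In bulk tissue, fewer cells of a type and less RNA per cell cannot be told apart.

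**Figure D1:**
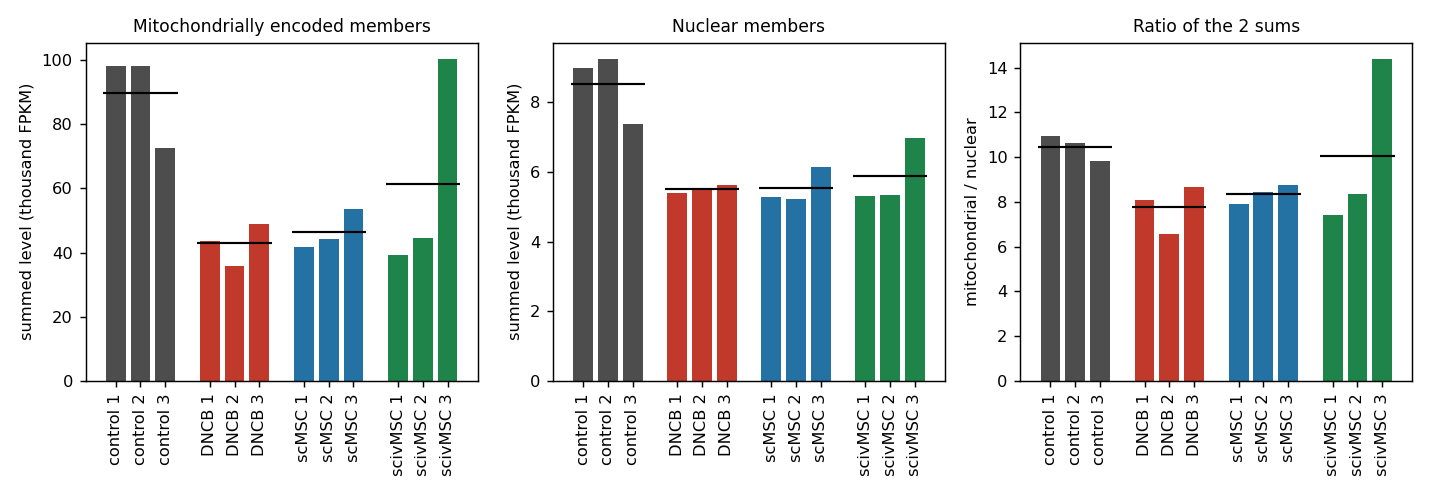
Summed FPKM (axis in units of 1000) of the 13 mitochondrial members and of the 117 nuclear members, and the ratio of both sums, in each library; bars are libraries and lines are group means. The mitochondrial sum of scivMSC replicate 3 was 100438 FPKM, and 89967 FPKM without mt-Atp6, which lay below the 2 highest control libraries (96488 and 96293 FPKM without mt-Atp6). Its ratio of 14.4 was the highest of the 12 libraries.

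In DNCB against control, 100 of the 127 tested members passed, 93 of them lower and 7 higher. Over all genes tested 25.3% passed, 12.9% higher and 12.4% lower. The median log2 fold change was -0.82 over the members and 0.02 over all genes. Among the members 97 had every DNCB library below every control library, a pattern found in 16.1% of all genes, and 12 had every DNCB library above every control library, found in 31.7% of all genes. With a change over 1 in size, 40 members passed, against 14.2% of all genes. By the roles of the members, 12 of 13 mitochondrial genes were lower and passed, and 73 of 83 nuclear genes of the respiratory chain and ATP synthase were. The V-ATPase went the other way in part, with 6 of 22 tested genes higher and 3 lower. When library size alone set the scale, the median of all genes moved to 0.20 in this comparison. On that scale 91 members passed, 83 lower and 8 higher, and 28.8% of all genes did, 4235 higher and 2062 lower.

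**Figure D2:**
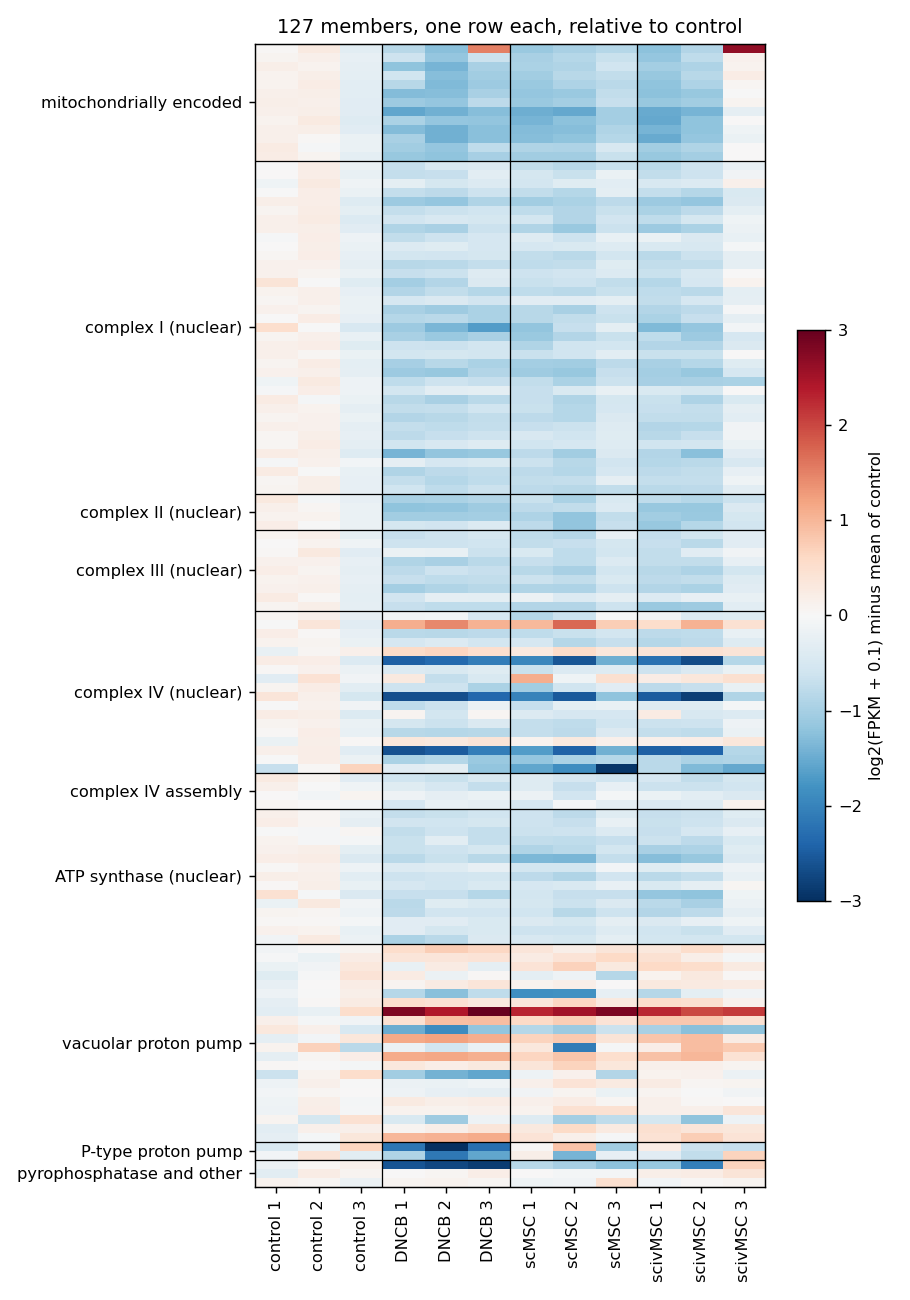
Level of each of the 127 tested members in each library as log2(FPKM + 0.1) minus the mean of the 3 control libraries, with 1 row per member grouped by complex and columns grouped by treatment; blue is lower and red is higher than control. The mitochondrial rows and most rows of complexes I to IV and ATP synthase were lower in 8 of the 9 DNCB-exposed libraries, scivMSC replicate 3 lay closer to control, and several V-ATPase rows were higher.

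Of the 13 mitochondrial members, mt-Co1, which encodes the catalytic subunit of complex IV, had the highest level. It was at 23325, 22155 and 17313 FPKM in control, 8923, 7903 and 10571 FPKM in DNCB, 10765, 11023 and 13626 FPKM in scMSC, and 10315, 10898 and 22295 FPKM in scivMSC. In DNCB it fell by 1.39 ± 0.34 on the log2 scale (adjusted p = 0.0138), and every DNCB library was below every control library. mt-Nd2, a membrane subunit of complex I, had the largest fall, from 5595, 5703 and 3988 FPKM in control to 1710, 1859 and 2074 FPKM in DNCB, a change of -1.63 ± 0.35 (adjusted p = 0.00700). mt-Cytb, the electron carrier of complex III, was at 11033, 11143 and 7886 FPKM in control and at 4005, 4096 and 5070 FPKM in DNCB, a change of -1.38 ± 0.36 (adjusted p = 0.0162). The remaining complex I genes mt-Nd1, mt-Nd3, mt-Nd4, mt-Nd4l, mt-Nd5 and mt-Nd6 had changes of -1.54 to -1.18. mt-Co2 (-1.15), mt-Co3 (-1.28) and the ATP synthase gene mt-Atp8 (-0.99) passed too. mt-Nd6, the 1 protein gene on the other strand of the chromosome, fell like the rest, by 1.32. The number of mitochondrial members that passed ranged from 4 to 12 when each of the 12 libraries was left out in turn. Of all genes 17.4% to 26.3% passed in these fits. The number was 5, 4 and 7 without DNCB replicate 1, 2 or 3, where 17.4%, 18.5% and 17.8% of all genes passed.

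The single mitochondrial values carry 2 limits from counting. mt-Atp6, the membrane subunit of ATP synthase, is the 13th member and did not pass (0.13 ± 0.97, adjusted p = 0.945). Its estimated count was 0.175 to 0.192 times that of its neighbour mt-Co3 in 10 libraries, but 1.09 times in DNCB replicate 3 and in scivMSC replicate 3, and without DNCB replicate 3 its change was -1.23. The gene lies at MT:7927-8607 and overlaps mt-Atp8 at one end and mt-Co3 at the other. Chromosome 1 also holds a nuclear copy of part of the mitochondrial chromosome. Its annotated pseudogenes match the mitochondrial genes almost base for base in GRCm38, with 678 of 678 bases of Gm10925 identical to mt-Atp6, 783 of 783 bases of Gm28437 identical to mt-Co3 and 876 of 876 bases of Gm28439 identical to mt-Nd4. The listed pseudogenes took 0.600% of all estimated counts in DNCB replicate 1, the lowest library, and 2.53% in scivMSC replicate 3, the highest. Reads from these stretches can be assigned to either place. This limits the level of a single mitochondrial gene and also the mitochondrial sum, since reads given to chromosome 1 are missing from both.

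The ratio of the mitochondrial to the nuclear sum does not depend on the scale of a library. It was 10.9, 10.6 and 9.83 in control, 8.10, 6.55 and 8.69 in DNCB, 7.91, 8.44 and 8.74 in scMSC, and 7.40, 8.34 and 14.4 in scivMSC. DNCB was lower than control by 0.44 on the log2 scale (SD 0.21 and 0.079), with no overlap between the groups (exact permutation test, two-sided, p = 0.10). That is the smallest p that 3 against 3 libraries can give. scMSC was lower than control by 0.32 (exact permutation p = 0.10), again without overlap. The scivMSC ratio differed from control by -0.12 (exact permutation p = 0.80), with an SD of 0.51 among its libraries. Over the 4 groups the exact permutation test gave p = 0.303, and p = 0.0177 without scivMSC replicate 3. Without each other library in turn it was 0.114 to 0.511. Left out as a gene, mt-Atp6 changed the ratio of scivMSC replicate 3 to 12.9, and with the chromosome 1 copy added to the mitochondrial sum that library had 19.6 against 13.1 to 14.7 in control.

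Complex I, the entry point for electrons from NADH, had 35 of 37 nuclear genes lower in DNCB, with changes of -1.62 to -0.58 over all 37, and for all 37 every DNCB library was below every control library. Ndufb11, an accessory subunit of the membrane arm and the nuclear complex I member of highest mean level, was at 175, 180 and 137 FPKM in control and at 88.9, 97.3 and 89.4 FPKM in DNCB, a change of -1.02 ± 0.18 (adjusted p = 0.00278). In the MSC groups 5 of the 6 libraries lay between 93.2 and 103 FPKM, and scivMSC replicate 3 was at 132 FPKM, close under the lowest control library. Ndufs1, a core iron-sulfur subunit chosen after its values were seen, fell by 1.08 ± 0.18 (adjusted p = 0.00187). The gene with the largest fall, Ndufb4c (-1.62), is annotated as a processed pseudogene and can share reads with its parent gene. The pair that did not pass were Ndufa11 and Ndufc2, with changes of -0.61 and -0.58 (adjusted p = 0.0573 and 0.0577).

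All 4 genes of complex II, succinate dehydrogenase, which is also an enzyme of the citric acid cycle, were lower in DNCB. Sdhd, a membrane anchor, was at 131, 114 and 100 FPKM in control, 79.5, 77.0 and 86.5 FPKM in DNCB, 66.3, 50.4 and 70.7 FPKM in scMSC, and 52.4, 62.9 and 77.4 FPKM in scivMSC. Its change was -0.70 ± 0.18 in DNCB (adjusted p = 0.0177), -1.06 in scMSC and -1.02 in scivMSC. No library of the other groups reached control. Sdha, Sdhb and Sdhc, which hold the succinate site, the iron-sulfur centres and the second anchor, changed by -1.14, -1.35 and -1.24 in DNCB. Sdhb was higher in every scMSC library (44.4, 46.1 and 58.1 FPKM) than in every DNCB library (33.0, 33.6 and 36.8 FPKM), but the difference of 0.55 ± 0.22 did not pass (adjusted p = 0.152). It was chosen for display after its values were seen.

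In complex III, which passes electrons on to cytochrome c, 8 of 9 nuclear genes were lower in DNCB, and the exception was Uqcr11. Uqcr10, a small subunit with the highest mean level among these genes, went from 181, 192 and 164 FPKM in control to 115, 116 and 118 FPKM in DNCB (-0.81 ± 0.16, adjusted p = 0.00426). The DNCB libraries lay within a few FPKM of one another and below every control library. In scMSC and scivMSC 8 and 7 of the 9 genes were lower than in control.

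In ATP synthase all 15 nuclear genes were lower in DNCB, with a narrow range of changes, -0.996 to -0.54. Atp5a1, the alpha subunit of the catalytic head, was at 362, 341 and 281 FPKM in control, 200, 207 and 214 FPKM in DNCB, 212, 188 and 254 FPKM in scMSC, and 201, 209 and 255 FPKM in scivMSC. Its change in DNCB was -0.86 ± 0.18 (adjusted p = 0.00549), and each of the 9 DNCB-exposed libraries was below control. Atp5g1, a gene for the proton-carrying c ring, had the largest fall of the 15 in scMSC, by 1.32 ± 0.29 (adjusted p = 0.0115).

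**Figure D3:**
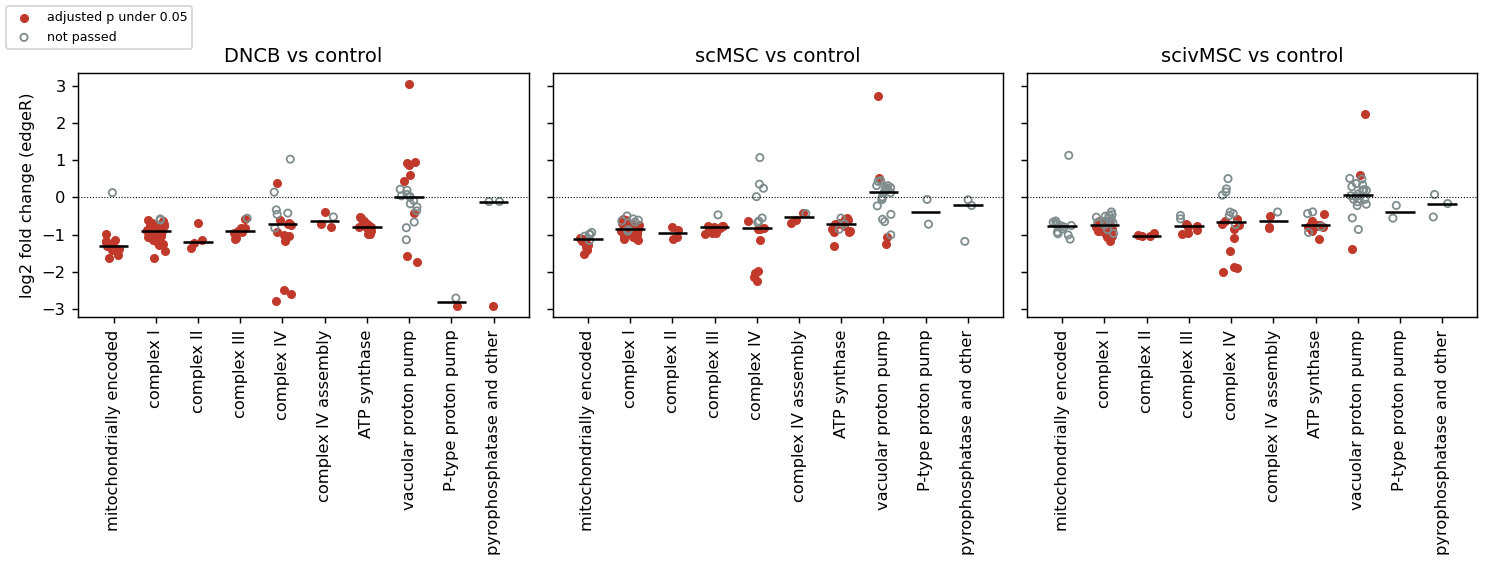
Log2 fold change (edgeR) of each of the 127 tested members against control in DNCB, scMSC and scivMSC skin, grouped by complex; filled points passed at an adjusted p under 0.05, open points did not, and bars are medians. The medians of complexes I to IV and ATP synthase lay below 0 in all 3 comparisons, the V-ATPase scattered around 0, and no mitochondrial member passed in scivMSC.

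Complex IV, which passes electrons to oxygen, had 11 of 18 nuclear genes lower and 1 higher, with changes from -2.79 to 1.03. Cox6b1, its nuclear gene of highest mean level, was at 225, 242 and 194 FPKM in control and 164, 160 and 170 FPKM in DNCB (-0.61 ± 0.17, adjusted p = 0.0214). It is the complex with tissue-specific subunit isoforms, and the heart and skeletal muscle forms Cox6a2, Cox7a1 and Cox8b fell most. Cox6a2 was at 346, 343 and 224 FPKM in control, 54.6, 59.4 and 71.0 FPKM in DNCB, 76.4, 50.7 and 108 FPKM in scMSC, and 63.4, 46.6 and 164 FPKM in scivMSC. It changed by -2.50 ± 0.47 in DNCB (adjusted p = 0.00356), Cox7a1 by -2.79 ± 0.53 (adjusted p = 0.00401) and Cox8b by -2.59 ± 0.45 (adjusted p = 0.00249). For each of the 3, every library of the other groups was below every control library. They were also lower than control in scMSC (-2.14, -2.05 and -1.99) and in scivMSC (-1.89, -2.01 and -1.87, or -2.72, -2.96 and -2.69 without scivMSC replicate 3). Their counterparts in other tissues did not fall alike. Cox6a1 rose in DNCB, from 116, 141 and 151 FPKM to 200, 213 and 193 FPKM (0.39 ± 0.13, adjusted p = 0.0480), Cox8a had a change of 0.14 (adjusted p = 0.491), and Cox7a2 fell by 0.71 (adjusted p = 0.0238). Of the 4 genes that help to assemble the complex, Cox10, Cox11 and Cox15, which make its haem or insert copper, changed by -0.79, -0.72 and -0.39 and passed, and Cox17 (-0.53, adjusted p = 0.0879) did not.

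As a share of the summed FPKM of each pair, Cox6a2 made up 74.8%, 70.8% and 59.7% in control and 21.4%, 21.8% and 26.9% in DNCB. It made up 31.5%, 20.2% and 38.6% in scMSC and 26.3%, 20.1% and 48.1% in scivMSC. The shares of Cox7a1 and Cox8b split from control in the same way, with 54.7% to 73.5% in control, 22.1% to 30.5% in DNCB, 24.9% to 44.9% in scMSC and 22.4% to 48.6% in scivMSC. In all 3 pairs the highest scivMSC library was replicate 3, and no library of the other 3 groups reached the control range. Because both genes of a pair are read from 1 library, these shares do not depend on its scale.

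**Figure D4:**
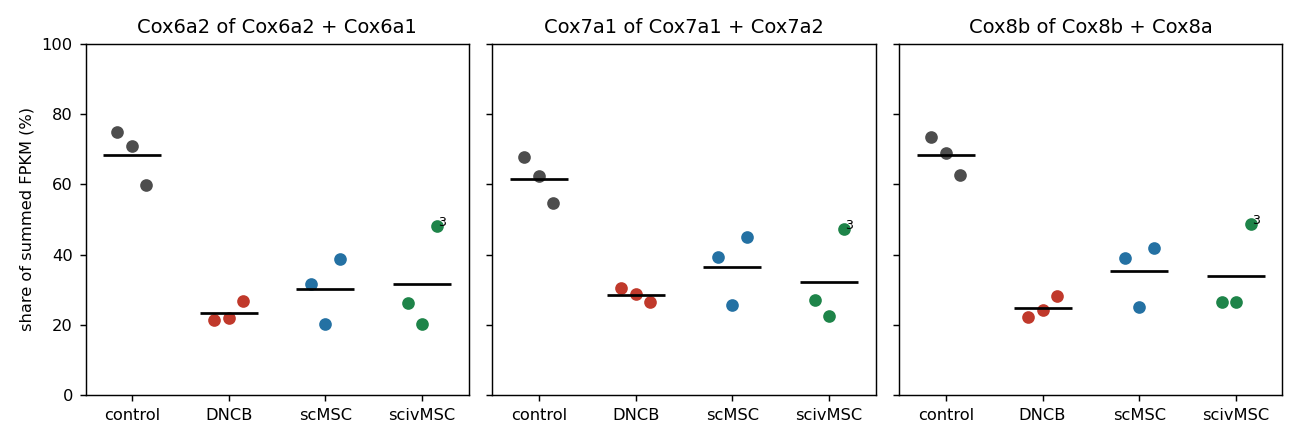
Share (%) of the muscle isoform in the summed FPKM of each pair of complex IV isoforms, with 1 point per library, a line at the group mean and the number 3 beside scivMSC replicate 3. Control libraries lay between 54.7% and 74.8% and all other libraries at or below 48.6%.

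The summed level of 17 skeletal muscle genes, among them Acta1 and Ckm, was also lower outside control. It was 25163 to 35867 FPKM in control, 6580 to 9041 FPKM in DNCB, 6976 to 14955 FPKM in scMSC and 7718 to 18235 FPKM in scivMSC, with the highest scivMSC value in replicate 3. In DNCB 14 of the 17 were lower and passed, with a median change of -2.14, and none of them was at 0. In scMSC and in scivMSC 13 of 17 were lower than in control, where 8.12% and 6.13% of all genes passed lower. Sebaceous gland genes were lower in DNCB, 9 of 10 (83.0 to 115 FPKM in sum against 665 to 831 FPKM). Neutrophil genes were higher, 9 of 10 (2507 to 3458 FPKM against 122 to 209 FPKM), as were 7 of 10 fibroblast genes (2195 to 2536 FPKM against 407 to 599 FPKM). Over all genes tested, 12.4% passed lower and 12.9% higher in DNCB than in control. Ucp1, which marks brown adipocytes, was at most 0.251 FPKM in any library. The part of these cell types in the fall of the oxidative phosphorylation genes was not tested.

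The promoters of 92 of the 117 nuclear members were found in the RefSeq table for GRCm38.p6, which gives 300 bases around each transcription start, most of them upstream. Both strands were searched, and a gene counted if any of its promoters held the letters. The core of the NRF1 site, GCGCA and GCGC separated by 1 base of any kind, was in 25.0% of 68 chain and ATP synthase genes and in 5.19% of all 27025 genes. The core of ETS factors (CCGGAAG) was in 23.5% and 9.93%, that of YY1 (AAGATGGC) in 14.7% and 3.19%, and the site of oestrogen-related receptors (TCAAGGTCA) in 2.94% and 0.466%. The muscle E-box CAGCTG was in 8.82% and 18.3%, TATAAA in 10.3% and 15.7%, and the MEF2 consensus in 0 of 68 and in 3.7%. A match describes the letters and is not a binding site. The promoters of 3 complex IV genes with different values in DNCB are shown, the muscle isoform Cox8b (chr7:140900397-140900696, minus strand) against the widely expressed Cox8a (chr19:7217567-7217866, minus strand) and Cox6a1 (chr5:115348909-115349208, minus strand). Each is printed 5′ to 3′ on the strand of its gene. Capitals mark CAGCTG and TATAAA in Cox8b, CCGGAAG or its reverse complement in Cox8a and Cox6a1, and the NRF1 core in Cox6a1, and none of the marked stretches overlap.
Cox8b: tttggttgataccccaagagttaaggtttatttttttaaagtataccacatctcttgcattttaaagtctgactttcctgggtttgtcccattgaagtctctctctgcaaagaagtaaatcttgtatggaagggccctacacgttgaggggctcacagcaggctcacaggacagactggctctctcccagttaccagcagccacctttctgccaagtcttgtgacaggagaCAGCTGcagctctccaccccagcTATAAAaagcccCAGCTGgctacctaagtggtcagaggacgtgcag
Cox8a: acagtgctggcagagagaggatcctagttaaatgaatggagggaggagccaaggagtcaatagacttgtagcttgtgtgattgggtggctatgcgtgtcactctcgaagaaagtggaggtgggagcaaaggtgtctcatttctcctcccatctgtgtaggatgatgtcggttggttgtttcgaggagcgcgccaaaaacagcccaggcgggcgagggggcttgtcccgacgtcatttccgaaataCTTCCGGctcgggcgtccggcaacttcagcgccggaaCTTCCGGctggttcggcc
Cox6a1: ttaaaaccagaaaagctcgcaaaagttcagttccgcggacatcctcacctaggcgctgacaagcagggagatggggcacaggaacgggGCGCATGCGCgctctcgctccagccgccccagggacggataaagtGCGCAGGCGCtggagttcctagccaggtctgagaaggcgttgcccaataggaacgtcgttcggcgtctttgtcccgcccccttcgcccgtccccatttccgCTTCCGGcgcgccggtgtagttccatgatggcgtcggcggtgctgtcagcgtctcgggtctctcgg

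The Cox8b promoter held 2 copies of CAGCTG and 1 of TATAAA and none of the other letters searched. Counted from the annotated start, its CAGCTG copies began at bases -19 and 17. Its TATAAA began at base 5, downstream of that start. The Cox8a promoter held 2 ETS cores, and the Cox6a1 promoter held 2 NRF1 cores and 1 ETS core. The promoter of Cox7a1, also a muscle isoform, held none of the letters searched, and that of Atp5b, a widely expressed gene of ATP synthase, held CAGCTG. The letters thus did not divide muscle forms from widely expressed genes. For Cox6a2 no promoter is shown.

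Ndufa4 and Ndufa4l2, paralogs now placed with complex IV, differed in another way. Ndufa4 was at 162, 185 and 143 FPKM in control and at 72.3 to 92.1 FPKM in the 9 other libraries, and it was lower than control in DNCB (-1.16 ± 0.15, adjusted p = 0.000896), scMSC (-1.16) and scivMSC (-1.08). Ndufa4l2, known as a gene induced in low oxygen, was at 48.3, 79.6 and 123 FPKM in control and 61.5, 63.1 and 34.4 FPKM in DNCB (-0.83 ± 0.39, adjusted p = 0.155). It was at 26.2, 21.3 and 10.2 FPKM in scMSC and 44.8, 31.3 and 26.9 FPKM in scivMSC. Every scMSC library was below every DNCB library, a change of -1.44 ± 0.40 (adjusted p = 0.0389), and below every control library, -2.26 ± 0.41 (adjusted p = 0.00460). The call against DNCB, but not its direction, was lost when DNCB replicate 1 (adjusted p = 0.114) or 2 (0.121), control replicate 2 (0.0562), scMSC replicate 2 (0.0805) or 3 (0.102), or scivMSC replicate 2 (0.0515) was left out. Cox4i2 is likewise a low-oxygen form of subunit 4. Its level was 1.08 to 1.80 FPKM in control and 2.97 to 3.94 FPKM in DNCB, without overlap, but the change did not pass (1.03 ± 0.36, adjusted p = 0.0609), and that of its partner Cox4i1 did not either (-0.42, adjusted p = 0.206).

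Among the V-ATPase genes, those that rose in DNCB encode parts of the catalytic head and of the membrane sector of the pump. Atp6v0d2, the form of subunit d known from osteoclasts and some macrophages, was at 0.193, 0.214 and 0.424 FPKM in control, 2.44, 1.83 and 3.59 FPKM in DNCB, 1.68, 2.00 and 2.46 FPKM in scMSC, and 1.63, 1.33 and 1.45 FPKM in scivMSC. The change in DNCB was 3.06 ± 0.36 (adjusted p = 0.000608), and no library of the DNCB-exposed groups overlapped control. It stayed higher than control in scMSC (2.74, adjusted p = 0.00124) and scivMSC (2.24, adjusted p = 0.00530). Its partner Atp6v0d1 had changes of 0.19 to 0.26 against control in the 3 groups and did not pass. Atp6v1a, the catalytic subunit, was at 11.2, 12.8 and 17.2 FPKM in control and 29.9, 31.2 and 28.9 FPKM in DNCB (0.95 ± 0.19, adjusted p = 0.00442). Atp6v1b2, the B2 subunit of the head, was at 14.4, 18.1 and 19.9 FPKM and 37.7, 39.0 and 36.5 FPKM (0.93 ± 0.16, adjusted p = 0.00245). The group means of both lay in between in the MSC groups, where the difference from DNCB did not pass for either gene. Atp6v0e and Atp6ap1, a small membrane subunit and an accessory protein, rose by 0.59 and 0.45. Atp6v1g1, a stalk subunit with the highest mean level of the V-ATPase genes, was at 88.4, 112 and 96.2 FPKM in control and 105, 106 and 108 FPKM in DNCB, where the groups overlapped. Its fitted change did not pass and turned sign with the scale (-0.08 after TMM scaling, which centres the bulk of genes, adjusted p = 0.765, and 0.11 with library size alone, adjusted p = 0.603).

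Tcirg1, the a3 subunit of the membrane sector, rose in DNCB and was lower again in scMSC. Its level was 6.61, 7.71 and 10.1 FPKM in control, 16.1, 16.6 and 17.6 FPKM in DNCB, 10.8, 8.87 and 7.86 FPKM in scMSC and 10.8, 13.5 and 10.6 FPKM in scivMSC. The change was 0.86 ± 0.15 in DNCB against control (adjusted p = 0.00298), -0.84 ± 0.15 in scMSC against DNCB (adjusted p = 0.00609) and -0.52 ± 0.15 in scivMSC against DNCB (adjusted p = 0.0649). No library of either MSC group overlapped DNCB. A list of 10 macrophage genes summed to 188, 201 and 731 FPKM in control, 684 to 747 FPKM in DNCB, 153 to 379 FPKM in scMSC and 44.6 to 405 FPKM in scivMSC, and 0 of the 10 passed in DNCB against control. Its part in the V-ATPase values was not tested.

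Atp6v1c2 and Atp6v0e2, forms of the C subunit and of the small membrane subunit, were lower in DNCB instead. Atp6v1c2, known from lung and kidney epithelium, was at 21.3, 36.0 and 47.5 FPKM in control, 15.9, 12.3 and 11.1 FPKM in DNCB, 29.98, 36.1 and 17.9 FPKM in scMSC and 35.6, 36.2 and 29.3 FPKM in scivMSC. It changed by -1.59 ± 0.30 in DNCB (adjusted p = 0.00401), by 1.13 ± 0.30 from DNCB to scMSC (adjusted p = 0.0323) and by 1.37 ± 0.30 from DNCB to scivMSC (adjusted p = 0.0225). All libraries of control, scMSC and scivMSC were above all DNCB libraries. Atp6v0e2 changed by -1.75 ± 0.25 in DNCB (adjusted p = 0.00111) and was also lower than control in scMSC (-1.07) and scivMSC (-1.38). Atp6v1d, part of the central stalk, was higher in scMSC than in DNCB (0.49 ± 0.13, adjusted p = 0.0299).

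Outside the chain and the V-ATPase, Atp12a and Lhpp had the largest falls among the nuclear members in DNCB. Atp12a, the non-gastric proton and potassium pump of epithelia, was at 8.20, 10.1 and 17.7 FPKM in control, 2.45, 0.660 and 2.27 FPKM in DNCB, 11.6, 20.6 and 5.48 FPKM in scMSC and 13.2, 7.20 and 7.05 FPKM in scivMSC. It was lower in DNCB than in control (-2.91 ± 0.59, adjusted p = 0.00518) and higher than DNCB in scMSC (2.86 ± 0.59, adjusted p = 0.0104) and scivMSC (2.35 ± 0.58, adjusted p = 0.0325). The DNCB libraries were below all 9 others. Without scivMSC replicate 3 the changes in scivMSC from DNCB were 2.49 for Atp12a (adjusted p = 0.0635) and 1.44 for Atp6v1c2 (adjusted p = 0.0516). Lhpp, a phosphatase that acts on pyrophosphate and phosphohistidine, was at 25.1, 29.0 and 31.8 FPKM in control and 4.69, 4.24 and 3.91 FPKM in DNCB (-2.92 ± 0.57, adjusted p = 0.00446). It was at 15.9, 14.2 and 12.1 FPKM in scMSC, 1.74 ± 0.55 above DNCB (adjusted p = 0.0637). In scivMSC it was at 12.8, 6.82 and 45.6 FPKM, 2.40 ± 0.56 above DNCB (adjusted p = 0.0274), and without the high value of replicate 3 the change was 1.18 (adjusted p = 0.0315). The inorganic pyrophosphatases Ppa1 and Ppa2 changed by -0.11 each in DNCB and did not pass.

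**Figure D5:**
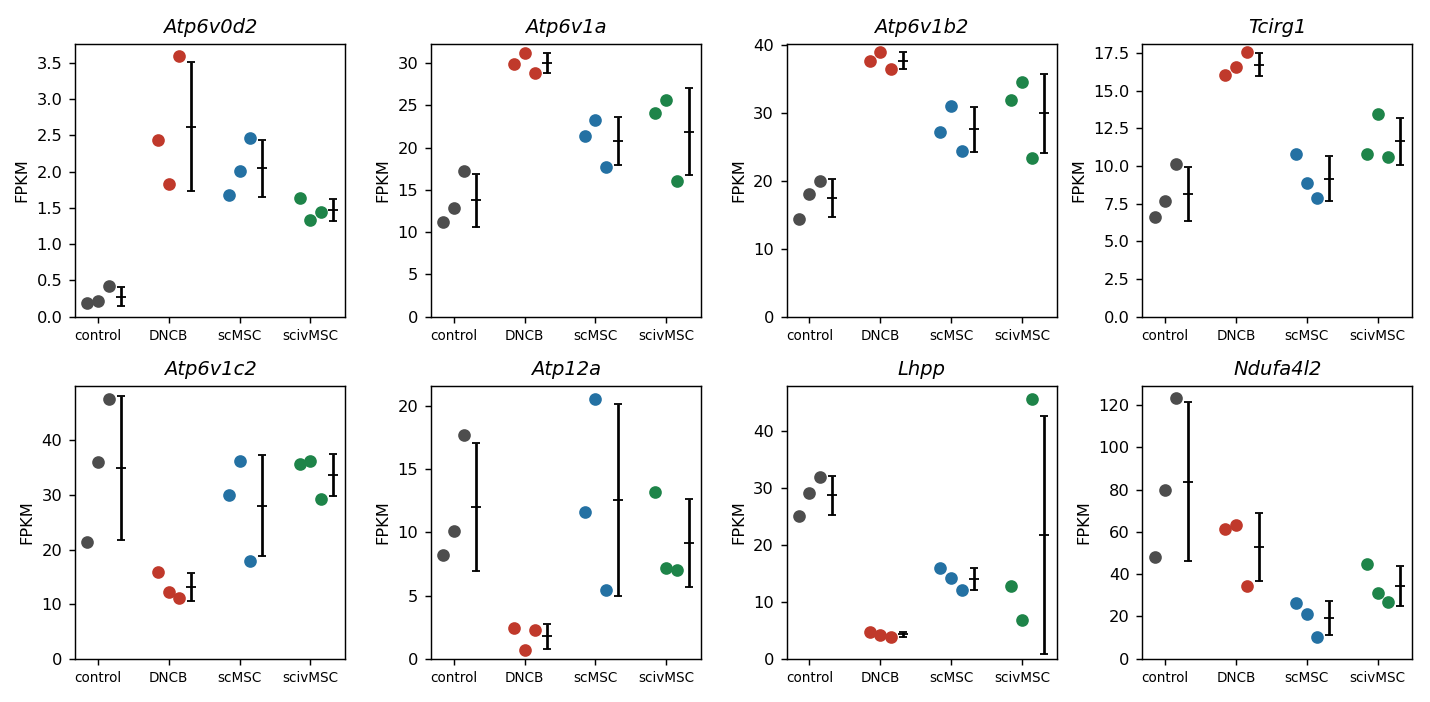
FPKM of 8 members named by size of change, with 1 point per library, and the mean with its SD (n = 3) beside each group. Atp6v0d2, Atp6v1a, Atp6v1b2 and Tcirg1 were higher in DNCB than in control, Atp6v1c2, Atp12a and Lhpp were lower in DNCB than in every other group, and Ndufa4l2 was lowest in scMSC.

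Atp12a, Atp6v1c2 and, in scivMSC, Lhpp were the only members that passed higher in an MSC group than in DNCB with a change over 1. Against DNCB, 5 members passed in scMSC (Atp12a, Atp6v1c2 and Atp6v1d higher, Ndufa4l2 and Tcirg1 lower) and 3 in scivMSC (Atp12a, Atp6v1c2 and Lhpp higher), while 12.7% of all genes passed in scMSC (6.95% higher, 5.77% lower) and 8.16% in scivMSC (4.56% higher, 3.6% lower). With a change over 1 in size, 3 members passed in each, against 8.5% and 5.46% of all genes. With DESeq2 the counts were 8 and 5, for which no share of all genes is given. Without DNCB replicate 1, 2 or 3 the counts were 2, 3 and 3 in scMSC, where 7.28%, 7.04% and 7.86% of all genes passed, and 0 each time in scivMSC, where 2.93%, 2.68% and 3.5% did. Without scMSC replicate 2 or 3 they were 2 and 3 in scMSC (7.5% and 8.94% of all genes), and without scivMSC replicate 1 or 3 they were 1 and 1 in scivMSC (2.55% and 3.6% of all genes). Of the 83 nuclear chain and ATP synthase genes, 1 passed in scMSC (Ndufa4l2) and 0 in scivMSC, where 2 had an unadjusted p under 0.05 in edgeR and 0 passed with DESeq2. Their median change from DNCB was 0.07 in scMSC and 0.12 in scivMSC. Of the 13 mitochondrial members 0 passed in either group, with 0 at an unadjusted p under 0.05 and 0 with DESeq2. Their median change was 0.13 in scMSC and 0.52 in scivMSC, and -0.05 in scivMSC without replicate 3. Hair shaft and inner root sheath genes were higher than DNCB in scMSC, 11 of 15, and in scivMSC, 6 of 15, and sebaceous gland genes, 8 and 9 of 10. Their part in the values of Atp12a, Atp6v1c2 and Lhpp was not tested.

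Against control, 80 members passed in scMSC, 78 lower and 2 higher, where 18.5% of all genes passed (10.4% higher, 8.12% lower). In scivMSC 60 passed, 58 lower and 2 higher, where 13.2% of all genes passed (7.11% higher, 6.13% lower). With the 6 libraries of scivMSC and control fitted alone, 8 members passed and 5.04% of all genes did. With a change over 1 in size, 24 and 14 members passed, against 9.32% and 6.85% of all genes. The 2 higher genes were Atp6v0d2 and Atp6v1b2 in both groups. The median change over members was -0.81 in scMSC and -0.73 in scivMSC, against -0.82 in DNCB, and these comparisons share the control libraries. Of the 93 members that were lower in DNCB, 75 also passed lower in scMSC and 57 in scivMSC. This overlap was not counted over all genes, and the shared control libraries favour it for any gene. It is therefore not a result about the members. Complex I counted 35 of 37 nuclear genes lower in DNCB, 30 in scMSC and 22 in scivMSC. For ATP synthase the counts were 15, 12 and 11 of 15. Between scivMSC and scMSC 0 of the 127 members passed (0.00457% of all genes did), 3 had an unadjusted p under 0.05 in edgeR, and 0 passed with DESeq2.

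The mitochondrial members passed in 8 of 13 cases in scMSC and in 0 of 13 in scivMSC, where 9 had an unadjusted p under 0.05 and 7 passed with DESeq2. No share of all genes is given for the unadjusted or the DESeq2 count. The scivMSC group was divided, since all 13 mitochondrial genes of replicate 3 were at or above the lowest control library and 0 of 13 were in replicates 1 and 2. In the 6 libraries of DNCB and scMSC this held for at most 1 of 13, which was mt-Atp6 in DNCB replicate 3. Of the 83 nuclear chain and ATP synthase genes, 34 (41.0%) of scivMSC replicate 3 were at or above the lowest control library, against 4 to 12 genes (4.82% to 14.5%) in the other 8 DNCB-exposed libraries. Over all genes tested the share was 69.9% to 80.8% over the 9 libraries. In scivMSC replicate 3 the mitochondrial genes were thus within or above the control range, and most of the nuclear chain was below it.

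Without scivMSC replicate 3, 12 of the 13 mitochondrial members passed lower in scivMSC than in control, with a median change of -1.34 in place of -0.77, and 94 members passed in all, 91 lower and 3 higher, where 14.1% of all genes passed. mt-Nd2 then changed by -1.72 (adjusted p = 0.00298) and mt-Co1 by -1.23 (adjusted p = 0.0111). Without replicate 1 or replicate 2 of scivMSC, 14 members passed in each case, where 7.04% and 6.12% of all genes passed, and without control replicate 1 the count was 29, where 6.19% of all genes passed. In scMSC, 51 members passed without scMSC replicate 1 against 80 with it, where 18.7% of all genes passed. The number of mitochondrial members that passed was 1 without scMSC replicate 1, scMSC replicate 2 or control replicate 1 (18.7%, 10.6% and 11.3% of all genes). It was 3 without scMSC replicate 3 or control replicate 2 (13.3% and 13.7% of all genes). It was 5 without DNCB replicate 1, 2 or 3 (15.6%, 15.8% and 15.8% of all genes), and 12 without scivMSC replicate 3 (19.7% of all genes). scivMSC replicate 3 differed from replicates 1 and 2 of its group in other measures. Its fibroblast genes summed to 173 FPKM against 927 and 1153 FPKM, its macrophage genes to 44.6 FPKM against 312 and 405 FPKM, and its skeletal muscle genes to 18235 FPKM against 9961 and 7718 FPKM. The part of these differences in its mitochondrial level was not tested.

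Genes around the pathway were counted in lists of their own. Of 19 genes of the citric acid cycle and pyruvate entry, which feed electrons to the chain, 16 were lower in DNCB and 0 higher, with a median of -1.10. The largest changes were in Pcx (pyruvate carboxylase, -1.80) and Pdhx (-1.48). Of 18 genes of fatty acid oxidation, 15 were lower and 1 was higher (Cpt1a, 1.06), and Cpt1b, the muscle form of the same enzyme, changed by -1.72. Assembly factors of the complexes had 19 of 42 lower and 1 higher, Pet117, whose mean went from 0.00642 to 2.82 FPKM, and Ecsit and Ndufaf5 changed by -1.17 and -1.18. A fold is not given for Pet117, which was close to 0 in control, and not every DNCB library of this gene was above every control library. Genes that maintain and read mitochondrial DNA, which act on all 13 mitochondrial members, had 4 of 32 lower, among them Fastkd1 (-0.94) and Fastk (-0.92), and 0 higher, with a median of -0.09, a share lower close to the 12.4% of all genes.

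Of 15 regulators of mitochondrial biogenesis and fuel use, 5 were lower in DNCB and 3 higher. Of all genes tested, 12.4% passed lower and 12.9% higher. Ppargc1a, the coactivator known to drive mitochondrial gene programmes, changed by -1.63 ± 0.42 (adjusted p = 0.0165) and the oestrogen-related receptor Esrrg by -2.02 ± 0.48 (adjusted p = 0.0111). Both levels were low in DNCB, with means of 0.8745 FPKM for Ppargc1a and 0.2011 FPKM for Esrrg, the latter close to the filter of 0.1 FPKM. Hif1a, the oxygen-sensing factor, changed by 1.73 ± 0.22 (adjusted p = 0.000857) and Ppard by 1.37 ± 0.26 (adjusted p = 0.00353). From DNCB to scMSC, a comparison that shares the DNCB libraries, Ppargc1a changed by 1.52 (adjusted p = 0.0379), Hif1a by -1.78 (adjusted p = 0.00199) and Ppard by -1.07 (adjusted p = 0.0193). Ppara (1.38, adjusted p = 0.0165) and Perm1, a muscle regulator of the same programme (0.76, adjusted p = 0.00861), were also higher in scMSC. In scivMSC Hif1a (-1.36) and Ppard (-1.07) were lower than in DNCB as well, Ppargc1a did not pass (1.33, adjusted p = 0.0795), and Perm1 was again higher (0.95, adjusted p = 0.00658). Of the carriers, the muscle forms Ckmt2 (-2.96) and Slc25a4 (-2.07) were lower in DNCB, and the widely expressed Slc25a5 (0.85) and Ucp2 (0.81) were higher.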

How the data were processed

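Total RNA of dorsal skin from 12 mice, 3 in each of 4 groups, was sequenced, and libraries were grouped by the treatment in their labels. The authors deposited, for each gene and library, FPKM values and estimated counts, which are whole numbers here. A step of about 4 estimated counts is worth 1 fragment, so the counts overstate the depth. The submitters' processing notes name Bowtie 0.12.2, HISAT2 2.0, StringTie 1.3.0 and the build mm8, while the gene coordinates in the deposited table are those of GRCm38, in which all 130 members were found by identifier and position (GENCODE M21). Whether counting used the strand is not given in the sources used here, and 60 of the 130 members overlap another gene.

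Estimated counts were analysed with edgeR 4.0.16 in R 4.3.3 (TMM scaling, quasi-likelihood F-test, 4 groups in 1 model without a replicate block, Benjamini-Hochberg adjustment over the 21890 genes whose mean reached 0.1 FPKM). A gene passed at an adjusted p under 0.05. Standard errors were taken from the fold change and the F value, and the steps were tested on simulated data. The simulated libraries had a smaller spread than these data, and changes were set only in genes above a count limit. The simulation therefore does not show how many changes would be found here. The sums of FPKM over mitochondrial and nuclear members were compared by exact two-sided permutation of the libraries. p-values measure the spread between single mice. Estimated counts totalled 63877153 to 75134001 per library, and the precision is set by 3 mice per group and a common biological coefficient of variation of 0.42.

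The members, the gene lists and the tests were chosen with earlier results of these data known. Genes named are all mitochondrial members, the 5 nuclear members per direction and comparison with the largest change among those passing with a mean of at least 1 FPKM, isoform pairs, the highest nuclear or mitochondrial member of each complex and the 2 members per direction of each related list with the largest change, apart from those said to be chosen after their values were seen or named as exceptions to a count. Alternatives were DESeq2 1.42.0, limma 3.58.1 on log2(FPKM + 0.1) and log2(FPKM + 1), library size alone, scaling without the mitochondrial chromosome, no filter and a filter at 1 FPKM, counts divided by 4, the 6 compared libraries alone, a replicate block, a fold threshold, chain members only, and each library left out. Those leaving out mt-Atp6 or the muscle isoforms from the sums, or adding the chromosome 1 copy, were chosen after seeing the data. Among same-numbered libraries of different groups 1 of 18 pairs had a correlation of deviations over 0.1, so the numbers were not treated as pairs.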

Additional observations from a re-analysis of the deposited data

Results flagged for a closer look

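Atp6v1c1, the widely expressed form of the C subunit of the V-ATPase, lay on opposite sides of DNCB in the MSC groups. It was at 8.75, 8.08 and 8.61 FPKM in DNCB, at 9.15, 11.2 and 8.997 FPKM in every scMSC library above that range, and at 7.87, 7.89 and 7.48 FPKM in every scivMSC library below it. The mean level of scivMSC was 0.792 times that of scMSC. It was singled out because all libraries of one MSC group were above, and all of the other below, the DNCB libraries. Of the 21890 genes tested, 3502 had every scMSC library above every DNCB library. Every scivMSC library was below every DNCB library in 3578. How many genes had both was not counted. The difference between the 2 effects was not tested as an interaction, since both share the DNCB libraries. The direct edgeR comparison of scivMSC with scMSC gave a change of -0.36 (adjusted p = 0.613). Control libraries were at 7.26, 7.12 and 6.77 FPKM. The groups hold 3 libraries each, too few for the check for a single library far from the rest of its group.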

How the results depend on the processing

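Of the 1559 alternative values computed for named genes, 1315 kept direction and side of the threshold, 185 no longer passed, 52 newly passed and 7 reversed. All 7 reversals were of mt-Atp6. In DNCB against control it changed by -0.19 with limma at either pseudocount, -0.67 with the replicate block, -0.08 without control replicate 3 and -1.23 to 0.54 without each library in turn, the lowest without DNCB replicate 3. In scivMSC against control it changed by -0.0094 with the block and -1.32 to 1.64 without each library, the lowest without scivMSC replicate 3. The members that passed numbered 40 in DNCB against control, 3 in scMSC against DNCB, 24 in scMSC against control and 14 in scivMSC against control when a change over 1 was also asked for. Among chain members alone 1 passed in scMSC and 0 in scivMSC against DNCB. DESeq2 gave 8 and 5 there. With the 6 libraries fitted alone 8 members passed in scivMSC against control. The replicate block gave 2 (scMSC) and 1 (scivMSC) against DNCB, and 97, 73 and 50 against control. No share of all genes is given for DESeq2 or the block, so these counts are not read as a result about the members. The numbers do not pair the mice (2 of 12 libraries correlated best with their own number). Without each library in turn, 68 to 106 passed in DNCB, 51 to 95 in scMSC and 14 to 94 in scivMSC against control, 2 to 7 and 0 to 3 against DNCB, and 0 between the MSC groups. Of all genes, 17.4% to 26.3%, 10.6% to 19.7% and 6.12% to 14.1% passed in these fits against control. Against DNCB 7.04% to 13.9% (scMSC) and 2.55% to 9.05% (scivMSC) of all genes passed. The log2 ratio of the mitochondrial to the nuclear sum reversed in scMSC against DNCB, to -0.064 by medians over members and from -0.0055 to 0.20 without each library. Likewise it ranged from -0.41 to 0.068 in scivMSC against control, from -0.089 to 0.39 in scivMSC against scMSC and from 0.025 to 0.50 in scivMSC against DNCB, and the exact permutation p over 4 groups from 0.0177 to 0.511. The cause was not tested. Library size alone moved the median change of all genes to 0.20, 0.16 and 0.21 against control. Intervals from counting are not given, because the estimated counts are not fragments.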

Other observations

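The RNAs of the mitochondrial ribosome, mt-Rnr1 and mt-Rnr2, are transcribed from the same chromosome as the 13 members but are not part of the pathway. Together they took 0.130%, 0.159% and 0.125% of all estimated counts in control, 0.103%, 0.0790% and 0.102% in DNCB, 0.151%, 0.216% and 0.206% in scMSC, and 0.156%, 0.151% and 0.322% in scivMSC. Every scMSC and scivMSC library was above every DNCB library. Of the 21890 genes tested, 3502 had every scMSC library and 3583 every scivMSC library above every DNCB library. The 13 members took 3.92% to 10.9% of the estimated counts, and the part of library preparation in the low rRNA shares was not tested. Against DNCB mt-Rnr2 changed by 1.08 ± 0.31 in scMSC (edgeR adjusted p = 0.0430) and by 1.16 ± 0.31 in scivMSC (adjusted p = 0.0437), and mt-Rnr1 by 1.00 (adjusted p = 0.0788) and 1.21 (adjusted p = 0.0511). In DNCB against control the values were -0.75 (adjusted p = 0.0999) for mt-Rnr2 and -0.72 (adjusted p = 0.145) for mt-Rnr1.

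Over all genes tested, 6.95% passed higher in scMSC and 4.56% in scivMSC than in DNCB, and several of the list counts that follow lie near these shares. Of the fuel pathways around the chain, 5 of 18 fatty acid oxidation genes passed higher in scMSC than in DNCB, led by Eci1 (1.12) and Cpt1b (0.96), and 1 did in scivMSC, Acadm (0.88). In the citric acid cycle list 0 passed in scMSC and 1 in scivMSC, Pcx (1.23). Ucp3, a mitochondrial carrier of muscle and brown fat, was higher than in DNCB in scMSC (1.07) and scivMSC (1.34). Against control 18 and 15 of the 19 citric acid cycle genes stayed lower in scMSC and scivMSC, 6 and 6 of the fatty acid oxidation genes, and 16 and 8 of the 42 assembly factors, where 8.12% and 6.13% of all genes were lower. In DNCB against control 12.9% of all genes passed higher and 12.4% lower, and the counts of T cell and red blood cell genes were near or under these shares. White adipocyte genes were lower in DNCB than in control, 6 of 10, as were 3 of 6 brown adipocyte genes. Of 10 mitosis genes all 10 were higher in DNCB, and so were 4 of 8 basal keratinocyte genes, with 1 lower. In DNCB 2 of 10 suprabasal keratinocyte genes were lower, 1 of 7 T cell genes was higher, and 0 of 6 red blood cell genes passed.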
